A study of Homo sapiens with 24 samples.

Results

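The ERK feedback genes are transcripts that the RAS-RAF-MEK-ERK kinase cascade induces and whose products mostly dampen it. They were taken as 10 named rows of the deposited table, DUSP4, DUSP5, DUSP6, SPRY1, SPRY2, SPRY4, SPRED1, ETV4, ETV5 and PHLDA1, of 26475 gene symbols in all. RNA had been sequenced from 3 single-cell clones of HK2, an immortalised human renal proximal tubule cell line, each carrying a VHL transgene that is expressed only with doxycycline (dox). VHL is the substrate-recognition subunit of the ubiquitin ligase that marks HIF-alpha proteins for degradation. In WT8 the endogenous VHL gene is described as intact, so these cells keep VHL without dox, whereas in MUT10 and MUT35 it was knocked out by CRISPR-Cas9 and dox withdrawal leaves the cells VHL null. Libraries came from each clone grown with dox (dox on, n = 4) and after its withdrawal (dox off, n = 4), which gives 6 groups and 24 libraries. Each genotype rests on few clones, 1 wild-type and 2 mutant, so a difference between genotypes cannot be told apart from a difference between clones, and within a clone removal of dox and loss of transgenic VHL cannot be told apart. Nothing in the labels says that replicates came from separate cultures, so p-values measure the spread between these samples, which may be technical.

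In the ERK pathway, activated ERK phosphorylates nuclear and cytoplasmic targets and switches on genes that in turn limit its own activity. DUSP4 and DUSP5 encode nuclear phosphatases and DUSP6 a cytoplasmic phosphatase that remove the activating phosphates from ERK. Sprouty (SPRY) and SPRED proteins restrain signalling upstream of ERK at the level of RAS and RAF. ETV4 and ETV5 are ETS transcription factors of the PEA3 group, and PHLDA1 encodes a pleckstrin homology-like domain protein, and all are widely used as transcriptional readouts of fibroblast growth factor and ERK signalling. In the study, the response to kinase inhibitors that act on FGFR1 was compared between VHL mutant and wild-type cells. The paper reports that these drugs lowered phosphorylated ERK, read as a downstream effect, more in MUT10 and MUT35 than in WT8. It also reports that proliferation of mutant cells without HIF1A was less sensitive to them. The RNA-seq asked which transcripts follow VHL loss.

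The dox labels were checked on VHL itself, in CPM, expected counts scaled to a common library size with TMM factors. VHL stood at 220 ± 15.0 CPM with dox and 30.0 ± 3.12 without it in WT8, at 381 ± 14.8 and 30.0 ± 3.07 in MUT10, and at 229 ± 30.8 and 18.2 ± 0.359 in MUT35 (mean ± SD, n = 4). The groups did not overlap in any clone (exact 2-sided permutation test, p = 0.0286, the smallest that 4 against 4 allows). Library totals ranged from 5206663 to 18196003 expected counts. Of 16 renal epithelial and proximal tubule markers, 9 averaged at least 1 CPM, PAX8, KRT8 and KRT18 among them, while the proximal tubule genes LRP2 and AQP1 stayed under 0.5 CPM in every library. The summed level of the list was higher without dox in each clone, 1113 to 1360 CPM with dox and 1843 to 1944 without it in WT8, 1088 to 1378 and 1483 to 1965 in MUT10, and 909 to 996 and 1344 to 1503 in MUT35; its part in the results was not tested. The labels also give a lung tissue, but only AGER of 8 lung markers averaged at least 1 CPM. Among 6 fibroblast markers, COL1A1 and LUM averaged at least 1 CPM and COL1A2 was at 0 throughout.

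One property of the libraries moves with dox in every clone and bears on each withdrawal effect below. Across genes, log2 CPM relative to the mean library changed with transcript GC content by -0.346 to -0.0265 per 10 percentage points in the 12 libraries with dox and by -0.00957 to 0.403 in the 12 without it. Between the dox states, the closest libraries were MUT10 dox on replicate 2 (-0.0265) and MUT10 dox off replicate 4 (-0.00957). The members span this scale, from SPRED1 with 36.3% GC to ETV4 with 60.6%, against a median of 47.9% over the tested genes. Member withdrawal effects were therefore also fitted with each library's GC trend removed, and those values are given for every member; whether the trend came from the cells or from library preparation was not tested.

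The regulatory sequences of the members that rose in mutant clones are shown because HIF factors accumulate when VHL is lost and bind a short core motif. The 250 bases before the RefSeq start (GRCh38.p14, from RefSeq promoter records) are printed 5′ to 3′ on the gene's strand for the members with the highest rises in a mutant clone, DUSP6 (chr12:89352502-89352751, minus strand), SPRY1 (chr4:123396545-123396794, plus strand) and PHLDA1 (chr12:76031777-76032026, minus strand). Capitals mark matches to the motifs searched on both strands, which were the ETS site CCGGAAG, the HIF core forms ACGTG and GCGTG, the AP-1 site TGANTCA, the CRE core TGACG and the Sp1 box GGGCGG.
DUSP6: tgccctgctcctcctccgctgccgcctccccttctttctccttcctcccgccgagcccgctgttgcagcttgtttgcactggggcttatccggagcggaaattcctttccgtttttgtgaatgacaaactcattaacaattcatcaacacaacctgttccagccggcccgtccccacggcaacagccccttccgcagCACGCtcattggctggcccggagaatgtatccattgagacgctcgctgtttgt
SPRY1: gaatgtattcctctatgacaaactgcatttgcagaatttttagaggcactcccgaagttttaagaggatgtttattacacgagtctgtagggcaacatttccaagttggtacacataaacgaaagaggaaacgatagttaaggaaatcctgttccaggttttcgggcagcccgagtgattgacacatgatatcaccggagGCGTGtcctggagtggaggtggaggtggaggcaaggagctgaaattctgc
PHLDA1: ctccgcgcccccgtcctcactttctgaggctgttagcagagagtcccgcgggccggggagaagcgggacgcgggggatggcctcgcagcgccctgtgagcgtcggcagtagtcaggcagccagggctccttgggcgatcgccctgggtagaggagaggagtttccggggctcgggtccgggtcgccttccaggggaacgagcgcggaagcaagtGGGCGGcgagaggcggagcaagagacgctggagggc

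DUSP6 held GCGTG at positions -53 to -49, counted from the start, on the strand opposite to the gene, so that it is printed as CACGC. SPRY1 held GCGTG at -50 to -46 on the strand of the gene. PHLDA1 held only the Sp1 box, at -36 to -31. Over the 6 members searched (SPRY2, SPRY4 and SPRED1 beside these), GCGTG was found in 2, against 32.2% of 35116 promoters, TGACG in 2 against 21.2%, and GGGCGG in 4 against 42.6%. The ETS site, the other HIF core form and the AP-1 site were each found in 0 of 6 members, against 8.52%, 18.5% and 6.57% of all promoters. Matches describe letters in a window and not binding, and an exon of the antisense gene ENSG00000274021 lies in the DUSP6 window. The SPRY4 window lies inside the annotated SPRY4 gene and overlaps an exon of it.

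Of the 10 members, 9 passed the filter on low counts. DUSP4 did not: it was above 0 in 7 of 24 libraries, with 9.22 expected counts in total and no library above 2. A limit of 3 counts corresponds to 0.165 CPM in the largest and 0.576 CPM in the smallest library, so DUSP4 could not be compared at this depth. Per kilobase of transcript, the mean level over the 6 groups was 57.5 CPM for PHLDA1, 24.1 for ETV5, 11.9 for DUSP5, 10.6 for SPRY2 and 7.75 for ETV4. DUSP6, SPRY1, SPRY4 and SPRED1 lay between 2.05 and 3.30 CPM per kilobase. By this measure DUSP5 was the most abundant ERK phosphatase of the set and DUSP4, at 0.00612 CPM per kilobase, the least abundant.

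Members were called after dox withdrawal in all clones, WT8 included, but so were 59.2% to 65.9% of all tested genes. In WT8, 7 of the 9 tested members rose and 2 fell, where 59.2% of all tested genes were called (29.5% higher and 29.7% lower). In MUT10, 5 rose and 2 fell (background 65.9%, with 33.7% higher and 32.2% lower), and in MUT35, 4 rose and 2 fell (63.1%, with 31.9% and 31.2%). In the fit with the GC trend removed, 5 rose and 0 fell in WT8 (background 40.3%, with 21.2% and 19.0%), 4 and 1 in MUT10 (61.2%, with 32.2% and 29.0%) and 5 and 2 in MUT35 (53.4%, with 28.2% and 25.2%). The dox-on and dox-off libraries did not overlap in CPM for 7 of 9 members in WT8, where 55.6% of all genes did not, for 6 in MUT10 (49.8%) and for 6 in MUT35 (59.2%). The median log2 fold change of the members was 0.38 in WT8, 0.31 in MUT10 and 0.18 in MUT35, against 0.0066, 0.036 and 0.014 over all tested genes. In the GC fit the members' medians were 0.24, 0.14 and 0.30, so the order of the clones was not stable. Calls are from edgeR's quasi-likelihood test with Benjamini-Hochberg adjustment over 13900 genes and a threshold of 0.05. In bulk RNA, fewer cells of a type and less RNA per cell cannot be told apart.

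**Figure D1:**
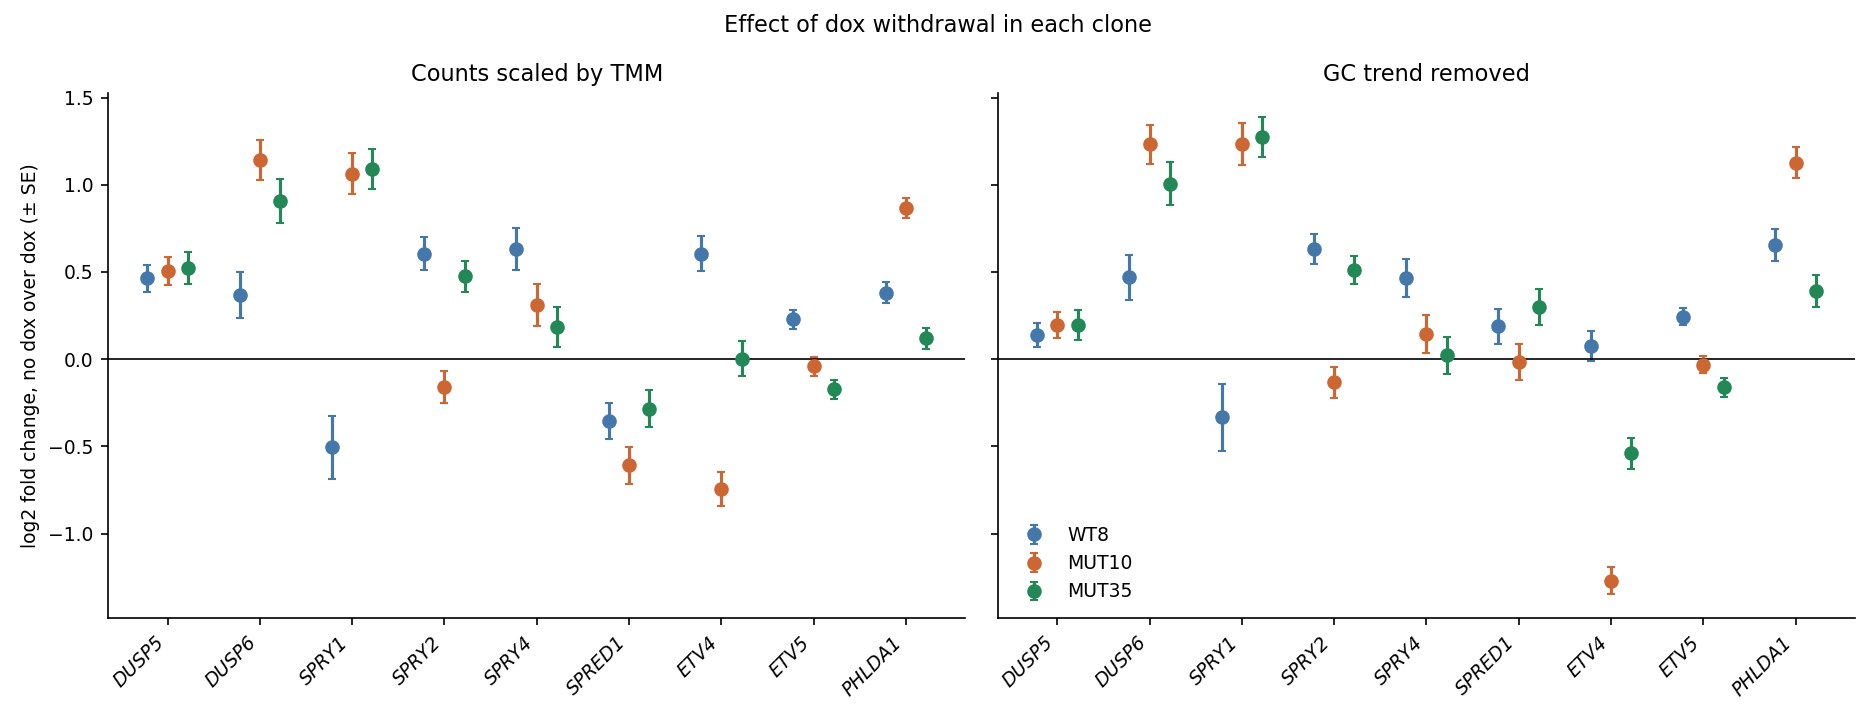
Withdrawal effect (log2 fold change, dox off over dox on, ± SE) of the 9 tested members in WT8, MUT10 and MUT35, from TMM-scaled counts (left) and with each library's GC trend removed (right). DUSP6 and SPRY1 rose by 0.91 to 1.27 in both mutant clones in both fits, while SPRED1 moved from -0.61 to -0.28 up to -0.02 to 0.30.

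DUSP6 (ENSG00000139318.8, chr12:89347235-89352501, minus strand), which encodes the cytoplasmic ERK phosphatase, rose 2.03-fold without dox in the mean of the mutant clones. In MUT10 it measured 9.34, 10.8, 9.78 and 9.76 CPM with dox and 23.1, 21.2, 22.8 and 21.0 CPM without it. In MUT35 it measured 8.63, 6.87, 6.65 and 6.31 CPM with dox and 11.3, 16.0, 11.7 and 14.0 CPM without it. In WT8 it measured 11.0, 8.70, 8.25 and 6.52 CPM with dox and 10.3, 10.7, 11.3 and 11.0 CPM without it. Every dox-off library of a mutant clone lay above every dox-on library of that clone, whereas the WT8 groups overlapped through dox on replicate 1. The rise was 1.14 ± 0.12 in MUT10 (log2 ± SE, adjusted p = 2.38e-09), 0.91 ± 0.13 in MUT35 (adjusted p = 7.77e-07) and 0.37 ± 0.13 in WT8 (adjusted p = 0.0173). The WT8 call was lost without dox on replicate 4 (0.24, adjusted p = 0.126). The GC fit gave 1.23, 1.01 and 0.47 in MUT10, MUT35 and WT8. Relative to WT8, the mutant effect was higher by 0.66 ± 0.16 (adjusted p = 0.00265), or 1.58-fold. Taken clone by clone, a contrast chosen after seeing the data, the difference from WT8 was 0.77 ± 0.18 for MUT10 (adjusted p = 0.00127) and 0.54 ± 0.18 for MUT35, which missed the threshold (adjusted p = 0.0559). With dox, mutant minus WT8 gave -0.00 ± 0.12 (adjusted p = 0.980), and without dox 0.65 ± 0.10 (adjusted p = 4.06e-06). Both are means of clones that differed. With dox MUT10 stood at 0.24 ± 0.13 (adjusted p = 0.153) and MUT35 at -0.25 ± 0.14 (adjusted p = 0.138) against WT8. Without dox MUT10 stood at 1.02 ± 0.11 (adjusted p = 1.39e-08) and MUT35 at 0.28 ± 0.12 (adjusted p = 0.0455). MUT35 minus MUT10 was -0.50 ± 0.13 with dox (adjusted p = 0.00211) and -0.73 ± 0.11 without it (adjusted p = 5.90e-06). An exon of ENSG00000274021 overlaps DUSP6 on the opposite strand.

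DUSP5 (ENSG00000138166.6, chr10:110497907-110511533, plus strand), the nuclear ERK phosphatase, ranged from 31.8 to 36.4 CPM with dox and 44.7 to 49.6 CPM without it in WT8. It ranged from 22.3 to 29.1 and 32.8 to 38 CPM in MUT10, and from 13.2 to 15.2 and 17.8 to 21.5 CPM in MUT35. It rose without dox in all 3 clones, by 0.46 ± 0.08 in WT8, 0.51 ± 0.08 in MUT10 and 0.52 ± 0.09 in MUT35 (adjusted p = 2.44e-05, 5.21e-06 and 1.84e-05). With the GC trend removed the rises shrank to 0.14 ± 0.07, 0.20 ± 0.07 and 0.20 ± 0.09, of which only that of MUT10 was called (adjusted p = 0.114, 0.0197 and 0.0587). The difference between mutant clones and WT8 in the effect was 0.05 ± 0.10 (adjusted p = 0.776). Its level separated the clones at both dox states: it was 0.81 lower in the mutant clones than in WT8 without dox (-0.81 ± 0.07, adjusted p = 4.00e-11) and 0.87 lower with it (-0.87 ± 0.07, adjusted p = 1.36e-10). WT8 dox off was the highest group, followed by MUT10 dox off and WT8 dox on, which the test did not separate (adjusted p = 0.411), then MUT10 dox on and both MUT35 groups, with all other neighbours apart.

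SPRY1 (ENSG00000164056.11, chr4:123396795-123403760, plus strand), a Sprouty inhibitor of receptor tyrosine kinase signalling, had the largest genotype difference of the members. MUT10 had 6.47, 6.79, 6.97 and 5.96 CPM with dox and 14.1, 13.1, 14.2 and 13.4 CPM without it. MUT35 had 7.99, 6.60, 7.39 and 8.57 CPM with dox and 14.5, 16.8, 18 and 15.6 CPM without it. WT8 had 3.79, 2.86, 3.71 and 2.31 CPM with dox and 1.56, 2.55, 2.24 and 2.31 CPM without it. All mutant libraries, with or without dox, lay above all WT8 libraries, and withdrawal separated the groups in each mutant clone. SPRY1 rose by 1.06 ± 0.12 in MUT10 (adjusted p = 1.38e-08) and by 1.09 ± 0.11 in MUT35 (adjusted p = 8.69e-09). In WT8 it fell by 0.50 on the log2 scale (SE 0.18, adjusted p = 0.0270). That fall was not called without WT8 dox on replicate 1 (-0.43) or 3 (-0.40), without WT8 dox off replicate 1 (-0.39), in WT8 fitted alone (-0.51, adjusted p = 0.0585) or with the GC trend removed (-0.33, adjusted p = 0.194). The GC fit gave 1.23 in MUT10 and 1.27 in MUT35. The mutant effect exceeded that of WT8 by 1.58 ± 0.20 (adjusted p = 6.89e-07), with 1.57 ± 0.22 in MUT10 and 1.60 ± 0.21 in MUT35. Without dox SPRY1 was 6.83-fold higher in the mutant clones than in WT8 (log2 2.77 ± 0.13, adjusted p = 7.49e-17), and with dox it was 2.28-fold higher (1.19 ± 0.14, adjusted p = 4.89e-08). The order of its levels was WT8 dox off, WT8 dox on, MUT10 dox on, MUT35 dox on, MUT10 dox off and MUT35 dox off, and the test did not separate MUT10 from MUT35 with dox (adjusted p = 0.148) or without it (adjusted p = 0.0660).

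SPRY2 (ENSG00000136158.12, chr13:80335976-80341126, minus strand), a second Sprouty gene, rose without dox in WT8 and MUT35 but not in MUT10. WT8 went from 16.9, 24.2, 18.6 and 19.5 CPM to 31.5, 29.6, 29.0 and 31.4 CPM. MUT35 went from 24.7, 22.1, 21.0 and 19.6 CPM to 31.0, 27.7, 30.6 and 31.8 CPM. MUT10 had 20.7, 24.2, 22.8 and 22.2 CPM with dox and 20.6, 21.3, 21.0 and 17.9 CPM without it, and those groups overlapped. The rises were 0.61 ± 0.09 in WT8 (adjusted p = 5.57e-06) and 0.48 ± 0.09 in MUT35 (adjusted p = 4.78e-05), while MUT10 stood at -0.16 ± 0.09 (adjusted p = 0.135). The GC fit gave 0.63, 0.51 and -0.13 for these clones. The MUT10 effect differed from that of MUT35 by -0.63 ± 0.13 (adjusted p = 0.00112) and from that of WT8 by -0.76 ± 0.13 (adjusted p = 5.18e-05), whereas MUT35 differed from WT8 by -0.13 ± 0.13 (adjusted p = 0.620). The mean difference between mutant clones and WT8, -0.45 ± 0.11 (adjusted p = 0.00420), therefore averages clones that differ. The mutant mean rise of 0.16 ± 0.06 (adjusted p = 0.0289) lost its call when any of 7 mutant libraries was left out (MUT10 dox on 1 or 4, MUT10 dox off 2 or 3, MUT35 dox on 3 or 4, MUT35 dox off 4; 0.13 to 0.15). That call was also lost with library size scaling (0.13, adjusted p = 0.0817) and with no filter (0.13, adjusted p = 0.114). With library size scaling MUT10 was called lower (-0.21, adjusted p = 0.0463).

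SPRY4 (ENSG00000187678.10, chr5:142310427-142326455, minus strand) ranged from 8.92 to 13.5 CPM in WT8 with dox and from 15.5 to 19.1 CPM without it, and the groups did not overlap. It rose by 0.63 ± 0.12 in WT8 (adjusted p = 8.19e-05). In MUT10 it went from 9.98 to 12.3 CPM with dox to 11.5 to 15.5 CPM without it, and in MUT35 from 11.2 to 13.5 CPM to 13.1 to 16.9 CPM, with overlap in both clones. The MUT10 rise, 0.31 ± 0.12 (adjusted p = 0.0256), was not called without MUT10 dox on replicate 1, 3 or 4 or MUT10 dox off replicate 1 or 3 (0.26 to 0.30) or with the GC trend removed (0.14, adjusted p = 0.253). That rise was also not called with library size scaling (0.26, adjusted p = 0.0624) or with no filter (0.28, adjusted p = 0.0547). In MUT35 the effect was 0.18 ± 0.12 (adjusted p = 0.173). The GC fit gave 0.47 in WT8 and 0.02 in MUT35. The mutant effect was 0.38 lower than that of WT8 (-0.38 ± 0.15), which missed the threshold at an adjusted p of 0.0603 and passed it with the GC trend removed (-0.38 ± 0.13, adjusted p = 0.0220). It also passed without WT8 dox on replicate 3 (-0.50), WT8 dox off replicate 4 (-0.43), MUT10 dox off replicate 1 (-0.40), MUT35 dox on replicate 3 (-0.42) or MUT35 dox off replicate 4 (-0.42), and with RLE or library size scaling (-0.40 each). No 2 neighbours in the order of its 6 group means differed beyond their spread, although the lowest and highest groups, WT8 dox on and WT8 dox off, did.

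SPRED1 (ENSG00000166068.13, chr15:38252836-38357249, plus strand), a membrane-anchored partner of neurofibromin in restraining RAS, fell without dox in the TMM-scaled counts. It ranged from 16.7 to 20.2 CPM with dox and 13.2 to 15.0 CPM without it in WT8, from 14.0 to 21.2 and 10.8 to 12.4 in MUT10, and from 14.9 to 16.6 and 11.9 to 13.7 in MUT35. The groups did not overlap in any clone. It fell by 0.36 in WT8 (SE 0.10, adjusted p = 0.00419), by 0.61 in MUT10 (SE 0.10, adjusted p = 1.12e-05) and by 0.28 in MUT35 (SE 0.10, adjusted p = 0.0193). SPRED1 has the lowest GC content of the members, at the 3.49th percentile of tested genes. With the GC trend removed its effects were 0.19 ± 0.10 in WT8 (adjusted p = 0.137), -0.02 ± 0.10 in MUT10 (adjusted p = 0.908) and 0.30 ± 0.10 in MUT35 (adjusted p = 0.0142), so the direction turned in WT8 and MUT35. The MUT35 fall was also not called without MUT35 dox on replicate 3 (-0.25) or MUT35 dox off replicate 3 (-0.25). Its mutant effect did not pass the test against WT8 in either fit (-0.09 ± 0.13, adjusted p = 0.667, and -0.05 ± 0.12, adjusted p = 0.820).

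ETV4 (ENSG00000175832.13, chr17:43527844-43579620, minus strand) moved in opposite directions in WT8 and MUT10. WT8 went from 14.4, 15.8, 16.4 and 13.9 CPM with dox to 23.2, 24, 24.2 and 20.6 CPM without it. MUT10 went from 24.9, 29.1, 24.4 and 24.6 CPM to 17.1, 16.2, 16.3 and 12.0 CPM. MUT35 had 15.0, 14.2, 14.4 and 15.0 CPM with dox and 15.4, 13.6, 13.3 and 16.2 CPM without it. WT8 and MUT10 thus exchanged places without overlap within either clone, while the MUT35 groups overlapped. ETV4 rose by 0.60 ± 0.10 in WT8 (adjusted p = 1.53e-05) and fell by 0.75 in MUT10 (SE 0.10, adjusted p = 1.73e-07), with 0.00 ± 0.10 in MUT35 (adjusted p = 0.981). The mutant effect was below that of WT8 by 0.97 on the log2 scale (-0.97 ± 0.12, adjusted p = 6.56e-07), in MUT10 (-1.35 ± 0.14, adjusted p = 1.59e-08) and in MUT35 (-0.60 ± 0.14, adjusted p = 0.00510). These differences between clones hardly moved with the GC trend removed (-0.98 ± 0.10, adjusted p = 3.16e-10), but the effects within clones did, to 0.08 ± 0.08 in WT8 (adjusted p = 0.504), -1.27 ± 0.08 in MUT10 (adjusted p = 3.20e-17) and -0.54 ± 0.09 in MUT35 (adjusted p = 1.52e-06). ETV4 has 60.6% GC, the highest of the members and at the 87.6th percentile of tested genes. MUT10 also differed from MUT35, by -0.75 ± 0.14 (adjusted p = 4.83e-04). An exon of DHX8 overlaps ETV4 on the opposite strand, and whether strand was used in counting is not stated.

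ETV5 (ENSG00000244405.8, chr3:186046314-186110318, minus strand) changed little but with small errors. It ranged from 94.8 to 102 CPM with dox and 114 to 117 CPM without it in WT8, from 117 to 120 and 106 to 125 in MUT10, and from 73.2 to 78.0 and 60.2 to 71.0 in MUT35. The groups overlapped only in MUT10. ETV5 rose by 0.23 ± 0.05 in WT8 (adjusted p = 8.34e-04) and fell by 0.17 in MUT35 (SE 0.06, adjusted p = 0.00905), with -0.04 ± 0.05 in MUT10 (adjusted p = 0.523). The GC fit gave 0.24, -0.16 and -0.03 for these clones. Without MUT35 dox off replicate 1 the MUT35 fall (-0.12) and the mutant mean fall (-0.08, against -0.11 ± 0.04, adjusted p = 0.0160, with all libraries) were not called. The mutant mean fall was also not called when at least 10 counts were required in every library (-0.08, adjusted p = 0.0581). The mutant effect was below that of WT8 by 0.34 on the log2 scale (-0.34 ± 0.07, adjusted p = 4.29e-04), in MUT10 (-0.27 ± 0.08, adjusted p = 0.00876) as in MUT35 (-0.40 ± 0.08, adjusted p = 6.66e-04). Without dox ETV5 was 0.40 lower in the mutant clones than in WT8 (-0.40 ± 0.05, adjusted p = 3.13e-08), a mean of MUT35 at -0.79 ± 0.06 (adjusted p = 1.77e-12) and MUT10 at -0.01 ± 0.05 (adjusted p = 0.899). An exon of DGKG overlaps ETV5 on the same strand.

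PHLDA1 (ENSG00000139289.15, chr12:76025447-76031776, minus strand) was the member that differed most between the mutant clones in favour of MUT10. MUT10 went from 353, 376, 334 and 344 CPM with dox to 682, 628, 664 and 592 CPM without it. MUT35 had 218, 220, 222 and 230 CPM with dox and 217, 264, 235 and 250 CPM without it. WT8 went from 264, 267, 244 and 241 CPM to 343, 343, 323 and 312 CPM. MUT10 without dox was above all other libraries, WT8 shifted without overlap, and the MUT35 groups overlapped. The rise was 0.87 ± 0.06 in MUT10 (adjusted p = 9.77e-13), 0.38 ± 0.06 in WT8 (adjusted p = 7.44e-06) and 0.12 ± 0.06 in MUT35, which was not called (adjusted p = 0.0845). MUT10 exceeded MUT35 by 0.75 ± 0.08 (adjusted p = 2.45e-07). Against WT8 the clones lay on opposite sides, MUT10 at 0.49 ± 0.08 (adjusted p = 5.43e-05) and MUT35 at -0.26 ± 0.08 (adjusted p = 0.0428), and their mean of 0.11 ± 0.07 was not called (adjusted p = 0.299). With the GC trend removed all 3 clones rose, by 0.65 ± 0.09 in WT8, 1.13 ± 0.09 in MUT10 and 0.39 ± 0.09 in MUT35 (adjusted p = 9.13e-06, 6.06e-10 and 0.00130). The MUT35 rise was called in the unadjusted counts only without MUT10 dox off replicate 1 (0.13) or MUT35 dox off replicate 1 (0.17) or under a stricter filter on counts. The antisense gene PHLDA1-AS1 overlaps it on the opposite strand.

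In the order of group means, neighbours were compared with the same model. Groups that are not neighbours can still differ. DUSP6 in MUT35 dox on lay below WT8 dox off (-0.62 ± 0.12, adjusted p = 8.01e-05) and MUT10 dox on (-0.50 ± 0.13, adjusted p = 0.00211). PHLDA1 in MUT35 dox on lay below WT8 dox on (-0.19 ± 0.06, adjusted p = 0.0108). For DUSP6 the 3 dox-on groups and WT8 dox off, from 7.12 to 10.8 CPM, were not separated from their neighbours, and above them came MUT35 dox off (13.2 ± 2.18 CPM) and MUT10 dox off (22 ± 1.07 CPM), each apart from the one before. SPRY2 formed 4 lower groups (19.8 to 22.5 CPM) without separated neighbours, followed by MUT35 dox off and WT8 dox off (30.3 ± 1.79 and 30.4 ± 1.23 CPM). ETV4 likewise had 4 lower groups (14.6 to 15.4 CPM), followed by WT8 dox off (23 ± 1.67 CPM) and MUT10 dox on (25.8 ± 2.24 CPM). ETV5 was lowest in MUT35 dox off (67.2 ± 4.82 CPM), then MUT35 dox on (75.8 ± 1.97 CPM) and WT8 dox on (98.9 ± 3.19 CPM), each separated, and the other groups lay between 115 and 118 CPM. PHLDA1 was lowest in both MUT35 groups and WT8 dox on (222 to 254 CPM), then came WT8 dox off and MUT10 dox on (330 ± 15.2 and 352 ± 18 CPM), and MUT10 dox off stood highest (641 ± 39.8 CPM). SPRED1, from 11.4 ± 0.698 CPM in MUT10 dox off to 18.1 ± 1.48 CPM in WT8 dox on, had no separated neighbours. These lowest and highest groups did differ (-0.67 ± 0.11, adjusted p = 3.74e-06).

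Against WT8, the members split by direction. The mutant withdrawal effect exceeded that of WT8 for DUSP6 and SPRY1 and fell short of it for SPRY2, ETV4 and ETV5, that is 2 higher and 3 lower of 9 tested, where 23.4% of all genes were called (12.1% higher and 11.4% lower). With the GC trend removed SPRY4 joined the lower group, which gave 2 and 4 (background 33.4%, with 16.8% and 16.6%). Compared without dox, mutant clones exceeded WT8 for 3 members (DUSP6, SPRY1 and PHLDA1) and fell below it for 6 (55.7%, with 27.6% and 28.1%), counts that held with the GC trend removed (63.2%, with 30.5% and 32.7%). These are means over clones that partly diverged: taken singly, PHLDA1 was above WT8 in MUT10 (0.96 ± 0.06, adjusted p = 7.72e-14) and below it in MUT35 (-0.45 ± 0.06, adjusted p = 2.76e-07). SPRY2 was lower in MUT10 (-0.59 ± 0.09, adjusted p = 2.90e-06) and stood at -0.00 ± 0.09 in MUT35 (adjusted p = 0.984). Both clones taken singly were higher for DUSP6 and SPRY1 and lower for DUSP5 and ETV4. For DUSP6 the MUT35 value was the smaller, at 0.28 ± 0.12 (adjusted p = 0.0455) beside 1.02 ± 0.11 in MUT10. The call of SPRY4 there was lost without WT8 dox off replicate 1 or 2 (-0.22 and -0.25, against -0.27 ± 0.10), and that of SPRED1 without WT8 dox off replicate 2 or 3 or MUT35 dox off replicate 3 (-0.20 to -0.21, against -0.23 ± 0.09). With dox, the mutant mean was higher for SPRY1, ETV4 and PHLDA1 and lower for DUSP5 (43.1%, with 20.6% and 22.6%), and the GC fit left 2 higher and 1 lower (51.3%, with 23.9% and 27.4%). Here too the clones diverged, with ETV4 at 0.77 ± 0.10 in MUT10 (adjusted p = 4.24e-07) and -0.05 ± 0.10 in MUT35 (adjusted p = 0.726), and PHLDA1 at 0.47 ± 0.06 in MUT10 (adjusted p = 2.36e-07) and -0.19 ± 0.06 in MUT35 (adjusted p = 0.0108). PHLDA1 at 0.14 ± 0.05 (adjusted p = 0.0291) lost that call without WT8 dox on replicate 3 or 4 (0.12), and SPRY2 (0.15 ± 0.08) gained one without WT8 dox on replicate 2 (0.26). MUT10 and MUT35 differed in their withdrawal effect for PHLDA1, higher in MUT10, and for SPRY2 and ETV4, lower in MUT10 (11.1%, with 6.68% and 4.4%), also 1 and 2 in the GC fit (19.9%, with 11.0% and 8.84%). SPRED1 joined them without MUT10 dox on replicate 2 (-0.44, against -0.33 ± 0.15).

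Profiles over the libraries varied among the members. As a description over 24 libraries that share clone, dox state and GC trend, the highest Pearson correlation of log2 CPM between members was 0.81 for DUSP6 with PHLDA1, followed by 0.75 for DUSP5 with ETV5, and the lowest was -0.78 for DUSP6 with SPRED1. SPRY2 and SPRY4 correlated at 0.65, ETV4 and ETV5 at 0.64, and DUSP6 and SPRY1 at 0.52. Over 10732 genes whose mean count reached 50, the profiles most like DUSP6 were those of SH3D21 (0.95) and NDUFB8 (0.95), those most like SPRY1 were ARRDC4 and RORA (0.98 each), and those most like PHLDA1 were TIMP2 (0.98) and C3 (0.96). For DUSP5 they were SPINT1 (0.98) and TSPAN33 (0.97), for ETV5 GIPC3 (0.97) and TSPAN1 (0.96), and for ETV4 SEMA7A (0.92) and HAS3 (0.90). For SPRY2 they were ISOC2 (0.91) and HNRNPL (0.89), for SPRY4 SDC1 (0.86) and SETD1B (0.84), and for SPRED1 ARNTL2 (0.90) and TMEM5 (0.89).

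Other brakes on the pathway were read beside the members for the mean of both mutant clones, in which 6 members rose and 3 fell and 73.5% of all genes were called (38.1% higher and 35.5% lower). The GC fit gave 5 and 2 (67.4%, with 35.7% and 31.7%). Of 7 other MAP kinase phosphatases, 4 rose and 0 fell, with a median log2 fold change of 0.33, which was 0.016 in the GC fit. DUSP1, an immediate early phosphatase, rose by 0.60 ± 0.05 (adjusted p = 1.50e-11; 0.30 in the GC fit), and DUSP10 rose by 0.53 ± 0.05 (adjusted p = 1.65e-10; 0.68 in the GC fit). In the GC fit, 2 of the 7 rose and 3 fell. DUSP2, the phosphatase PAC1, rose in WT8 (1.16 ± 0.29, adjusted p = 0.00130), but at a low level, from 1.23 ± 0.38 to 2.82 ± 0.38 CPM. With the GC trend removed that rise was 0.52 (adjusted p = 0.127). The mutant effect minus that of WT8 was -1.12 ± 0.37 for DUSP2 (adjusted p = 0.0279) and -0.71 ± 0.21 for DUSP9 (adjusted p = 0.0133). Of 12 other Sprouty, SPRED and RAS-regulating genes, 8 rose and 2 fell. The GC fit also gave 8 and 2, but of partly different genes. There DAB2IP (-0.07) and SH2B3 (0.04) lost their calls, NF1 (0.32) and RASA2 (0.16) were called higher, and SPRED3 (-0.36) was called lower. The RAS GTPase-activating gene RASA1 fell by 1.18 (SE 0.08, adjusted p = 2.60e-13), and LZTR1, an adaptor that targets RAS proteins for degradation, rose by 0.84 ± 0.10 (adjusted p = 1.00e-08). In the GC fit RASA1 was at -0.98 and LZTR1 at 0.30. WT8 moved the same way, with RASA1 at -0.61 ± 0.11 (adjusted p = 3.42e-05) and LZTR1 at 0.41 ± 0.15 (adjusted p = 0.0240). The mutant effect minus that of WT8 was -0.57 ± 0.13 for RASA1 (adjusted p = 0.00187). For LZTR1 it was 0.43 ± 0.18, which missed the threshold (adjusted p = 0.0876) and passed it in the GC fit (adjusted p = 0.0474). RASA2 fell by 0.40 (SE 0.08), but rose by 0.16 with the GC trend removed. In WT8 RASA2 stood at -0.57 ± 0.12 (adjusted p = 2.84e-04), and its mutant effect minus that of WT8 was not called (0.18 ± 0.15, adjusted p = 0.439).

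In the cascade itself, 14 of 23 genes rose and 5 fell in the mutant mean, against the 73.5% of all genes called. The GC fit gave 16 and 2 (67.4%). Compared with WT8, 7 exceeded it with 0 below, where 12.1% of all genes were called higher and 11.4% lower. The GC fit gave 10 and 0 there (16.8% and 16.6%). MAPK3, which encodes ERK1, rose by 1.20 ± 0.08 (adjusted p = 7.31e-13; 0.65 in the GC fit) and exceeded the WT8 effect by 0.66 ± 0.15 (adjusted p = 0.0019). MAP2K1, which encodes MEK1, exceeded it by 0.67 ± 0.09 (adjusted p = 9.35e-07). In the mutant mean SHOC2 fell by 0.54 (SE 0.08, adjusted p = 1.76e-06) and PTPN11 by 0.44 (SE 0.05, adjusted p = 3.30e-09). The GC fit gave 0.03 for SHOC2 and -0.14 for PTPN11. WT8 also had lower levels without dox, with SHOC2 at -0.72 ± 0.12 (adjusted p = 1.52e-05) and PTPN11 at -0.37 ± 0.07 (adjusted p = 4.68e-05). The mutant effect minus that of WT8 was not called for SHOC2 (0.18 ± 0.14, adjusted p = 0.420) or PTPN11 (-0.07 ± 0.08, adjusted p = 0.585). In the GC fit that of SHOC2 was called (0.21 ± 0.08, adjusted p = 0.0493). Of 15 tested other ERK-induced transcripts, 9 rose and 3 fell (background 73.5%), and against WT8 2 were higher and 5 lower (23.4%). Against WT8 the GC fit gave 2 higher and 7 lower (33.4%). EGR1, an immediate early transcription factor, fell by 0.59 (SE 0.13; -0.89 in the GC fit). FOSB, another, fell in MUT10 (-1.27 ± 0.27, adjusted p = 2.06e-04) and stood at -0.05 ± 0.25 in MUT35 (adjusted p = 0.873), a difference of -1.21 ± 0.37 (adjusted p = 0.0335). FOSB was at a low level, with 3.23 ± 0.99 CPM with dox and 1.32 ± 0.38 CPM without it in MUT10. EGR2 rose by 0.97 ± 0.09 in the mutant mean (0.86 in the GC fit). ETV1, the third PEA3 gene beside ETV4 and ETV5, rose by 0.99 ± 0.06 in MUT10 and 0.24 ± 0.06 in MUT35, which differed (0.75 ± 0.08, adjusted p = 2.74e-07), and in the GC fit by 1.55 and 0.78. In the GC fit the counts of this list in the mutant mean became 7 higher and 6 lower (67.4%).

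**Figure D2:**
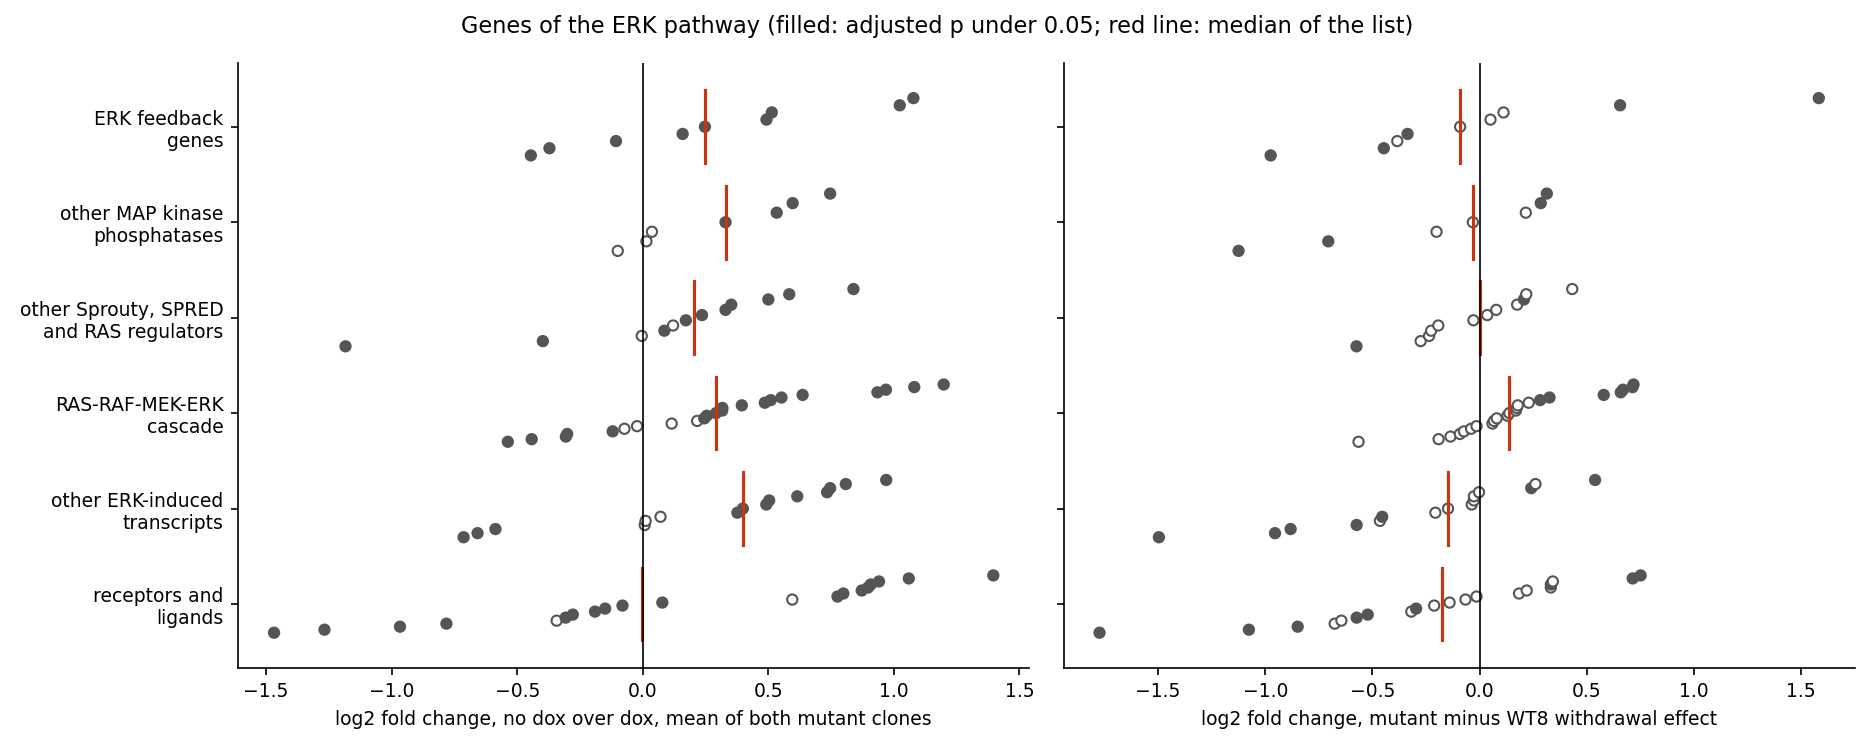
Log2 fold changes of every tested gene in the 6 lists of the ERK pathway, for withdrawal in the mean of both mutant clones (left) and for that effect minus WT8 (right); filled points have an adjusted p under 0.05 and the red line is the list's median. SPRY1 is the highest member on the right at 1.58 and ETV4 the lowest at -0.97, and the members' median on the right is -0.09.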

How the data were processed

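Poly(A) RNA from 24 libraries was sequenced, aligned to hg38 with bowtie2 and quantified with RSEM by the authors, who deposited a table of expected counts per gene symbol; versions, the gene annotation and use of strand in counting are not given in the sources used here. The labels and the study's methods name different library kits, and the sources disagree on whether WT8 without dox counts among the VHL-deficient cells, so WT8 is treated here as a clone of its own. The time from dox withdrawal to harvest is not given. Expected counts (5618 of 26475 symbols at 0 throughout) were rounded and fitted for all 6 groups with edgeR 4.0.16 in R 4.3.3 (TMM, default expression filter, robust quasi-likelihood, 13900 genes, common biological variation 8.37%), with Benjamini-Hochberg adjustment over all tested genes and a threshold of 0.05. A paired fit used the replicate number. CPM used TMM-effective library sizes, and log2 CPM for profiles had a prior count of 2. The GC fit took each library's lowess trend (span 0.3) with transcript GC content as an offset, for 13479 genes. Alternatives were RLE or library size scaling, no filter or at least 10 counts in every library, DESeq2 1.42.0, each clone fitted alone, a replicate block, the GC fit with and without that block, and each library left out in turn. Each mutant clone against WT8 was added after seeing the data. All members are named. In other lists, up to 2 genes per direction were picked by the smallest adjusted p, in the mutant mean effect and in its difference from WT8. Only some of those picked are named. Members and lists were chosen with earlier results of these data known. Expected counts carry counting error beside the spread between replicates, and totals from 5206663 to 18196003 limit precision most for the members with the lowest counts. The model was tested on simulated data.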

Additional observations from a re-analysis of the deposited data

Results flagged for a closer look

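In 5 of 9 tested members the withdrawal effect of the mutant clones differed from that of WT8 in a test of the difference itself (edgeR quasi-likelihood, Benjamini-Hochberg adjusted). The difference was 1.58 on the log2 scale for SPRY1, 0.66 for DUSP6, -0.45 for SPRY2, -0.97 for ETV4 and -0.34 for ETV5. Of all tested genes, 23.4% were called in that test. In 3 of the 9 members the mutant clones differed from each other in their withdrawal effect, by 0.75 for PHLDA1, -0.63 for SPRY2 and -0.75 for ETV4 (MUT10 minus MUT35). In that comparison 11.1% of all tested genes were called. A single library stood apart from the others of its group in 2 cases by Dixon's ratio of gap to range, which chance alone exceeds in about 1 in 20 groups. The 9 tested members have 6 groups each, so chance alone can give such cases. SPRY4 in MUT35 dox on replicate 3 was 11.2 CPM, with the others of its group at 13.3 to 13.5 CPM. ETV4 in MUT10 dox on replicate 2 was 29.1 CPM, with the others at 24.4 to 24.9 CPM.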

How the results depend on the processing

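Over the alternatives, 2306 values kept their direction and side of the threshold, 51 lost a call, 19 gained one and 45 changed sign. Most of these values come from the fits that leave out a single library, which change the data little. In the GC fit alone, 57 values were kept, 8 lost a call, 2 gained one and 5 changed sign. The count of members lower in WT8 went from 2 to 0 with the GC trend removed, with or without a replicate block, to 1 with WT8 fitted alone, and to 1 to 2 with each library left out. The count lower in MUT10 went from 2 to 1 with the GC trend removed, with or without the block, and that in MUT35 was 1 to 2 with each library left out. The count of members with a larger effect than WT8 went from 2 to 1 for MUT35 alone and to 3 for MUT10 alone, both chosen after seeing the data. The cause was not tested. Signs changed with the GC trend removed for SPRED1 in WT8 (0.19), MUT35 (0.30) and the mutant mean (0.14), all equal to these digits with the block, for ETV4 in MUT35 (-0.54, and -0.54 with the block) and for DUSP5 in MUT10 minus MUT35 (0.0013, and 0.0016 with the block). Without MUT10 dox on replicate 2 and MUT10 dox off replicate 4 together, that DUSP5 value was 0.033, ETV4 in MUT35 was -0.012 and DUSP6 in mutant minus WT8 with dox was 0.0035. The last was 0.00036 with RLE, 0.010 with no filter and 0.0042 with DESeq2. ETV4 in MUT35 was -0.0072 with library size alone and -0.037 with no filter. For MUT35 alone against WT8, SPRED1 was 0.072 and PHLDA1 -0.26. With each library left out, uncalled effects crossed 0 for DUSP5 in mutant minus WT8 (-0.0082 to 0.089) and MUT10 minus MUT35 (-0.097 to 0.032), DUSP6 in mutant minus WT8 with dox (-0.13 to 0.11), SPRY1 in MUT10 minus MUT35 (-0.092 to 0.042) and ETV4 in MUT35 (-0.051 to 0.046). Same-numbered libraries did not deviate together (mean correlation 0.0256 over 60 pairs from -0.396 to 0.570, against -0.00885 over 180 other pairs, and 5 of 24 libraries correlated best with their own number), so the numbers were not taken as a pairing, and the replicate block changed no call of a member. At these totals DUSP4 could not be measured, and changes of the lowest tested members, SPRY1 in WT8 among them, rest on few counts.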

Other observations

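Receptors and ligands upstream of ERK moved in both directions. Of 20 tested genes of 23 listed, 9 rose and 9 fell without dox in the mean of the mutant clones, 10 rose and 0 fell in WT8, and against WT8 3 were higher and 6 lower, where 73.5%, 59.2% and 23.4% of all genes were called. With the GC trend removed these counts were 10 and 6, 9 and 0, and 5 and 6, where 67.4%, 40.3% and 33.4% of all genes were called. Among ligands of the epidermal growth factor receptor, TGFA rose by 1.06 ± 0.05 in the mutant mean (adjusted p = 1.05e-16), whereas AREG fell by 1.47 (SE 0.04, adjusted p = 6.73e-22) and EREG by 0.97 (SE 0.06, adjusted p = 2.54e-14; -0.37 with the GC trend removed). In WT8, AREG rose by 0.30 ± 0.05 (adjusted p = 3.09e-05), and the mutant effect minus that of WT8 was -1.77 ± 0.07 for AREG (adjusted p = 1.90e-17), -0.85 ± 0.10 for EREG (adjusted p = 1.53e-07) and 0.71 ± 0.08 for TGFA (adjusted p = 2.26e-07). PDGFB, a platelet-derived growth factor chain, exceeded its WT8 effect by 0.75 ± 0.16 (adjusted p = 6.18e-04). FGFR1 rose by 0.94 ± 0.06 in the mutant mean (adjusted p = 2.80e-13) and by 0.76 ± 0.10 in WT8 (adjusted p = 6.49e-07; 0.62 and 0.42 with the GC trend removed), and the difference of 0.18 ± 0.12 was not called (adjusted p = 0.273), but was called with the GC trend removed (0.19 ± 0.08, adjusted p = 0.0467).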
